A study of Homo sapiens with 18 samples.

Results

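PRICKLE1 is 1 of the 55765 genes measured in an RNA sequencing study of G401, a cell line from a malignant rhabdoid tumour, and it was picked because its normalized count was higher in both RB1-deleted clones than in the control line under solvent. Because those DMSO values chose the gene, they are given as a description without a test. The control line, called WT, was edited by CRISPR/Cas9 at the safe harbour locus AAVS1 and keeps RB1, and whether it is a single clone is not given in the sources used here. The RB1-deleted lines E1 and F2 carry a biallelic RB1 deletion made in the same way, and each is 1 clone, so the deletion and whatever else sets a clone apart cannot be told apart within a clone. WT, E1 and F2 were each treated with 10 µM tazemetostat, a drug that blocks the histone methyltransferase EZH2, or with as much DMSO for 11 days, in 3 biological replicates, giving 6 groups and 18 libraries.

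PRICKLE1 encodes a cytoplasmic LIM domain protein of the planar cell polarity pathway, which aligns cells within the plane of a tissue. In that pathway PRICKLE proteins bind VANGL proteins on one side of a cell, while Frizzled, Dishevelled and ANKRD6 (Diversin) gather on the other, and CELSR cadherins link the neighbouring cells. PRICKLE1 was also described as a binding partner of the neuronal gene repressor REST, and its family has PRICKLE2, PRICKLE3 and PRICKLE4 as further members. EZH2 places the repressive mark H3K27me3, and rhabdoid tumours lack the SWI/SNF subunit SMARCB1, a loss linked to dependence on EZH2.

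The libraries held 25709489 to 39314860 reads, and the values below are normalized counts, which are gene counts divided by a size factor of 0.812 to 1.145 for each library. SMARCB1 had 0 reads in all 18 libraries, as the line's label implies. RB1 stood at 2694 ± 132 in WT under DMSO, at 648 ± 138 in E1 and at 839 ± 30.5 in F2 (SD, n = 3), and it was lower in the clones under tazemetostat too, with means of 977 and 937 against 2474. Gene counts do not show which RB1 reads lie outside the deleted stretch. In bulk RNA, fewer cells of a type and less RNA per cell cannot be told apart.

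The promoter of PRICKLE1 is shown because every expression result below concerns what is made from this gene, and that of TMEM117 because it was the gene with the most similar profile and lies nearby. The windows hold the 250 bases before the start given by RefSeq (GRCh38.p14), read in the direction of transcription, with CpG dinucleotides in capitals. PRICKLE1 lies on the minus strand of chromosome 12, in the window chr12:42483616-42483865, and TMEM117 on the plus strand, in the window chr12:43835831-43836080.
PRICKLE1: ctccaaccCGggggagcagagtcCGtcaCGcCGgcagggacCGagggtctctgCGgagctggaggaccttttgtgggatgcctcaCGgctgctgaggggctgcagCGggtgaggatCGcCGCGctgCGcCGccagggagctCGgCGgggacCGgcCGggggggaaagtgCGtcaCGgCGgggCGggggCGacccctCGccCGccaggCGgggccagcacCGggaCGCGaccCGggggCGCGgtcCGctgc
TMEM117: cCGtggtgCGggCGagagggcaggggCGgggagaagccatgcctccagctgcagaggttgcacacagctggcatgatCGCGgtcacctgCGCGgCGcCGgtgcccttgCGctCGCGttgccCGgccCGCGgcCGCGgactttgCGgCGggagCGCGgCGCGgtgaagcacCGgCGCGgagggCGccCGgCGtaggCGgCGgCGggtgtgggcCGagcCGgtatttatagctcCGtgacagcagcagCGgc
The PRICKLE1 window had a GC content of 77.2% and 32 CpG dinucleotides, more CpG than 90.5% of the 35116 windows in the RefSeq table. The TMEM117 window had 74.8% GC and 37 CpG, more than 96.0% of windows, beside medians of 58% GC and 11 CpG over all windows. On either strand, neither window held an E2F motif (TTTCCCGC, TTTCGCGC, TTTGCCGC or TTTGGCGC), which 2.79% of windows held, nor a CHR element (TTTGAA or TTCGAA), which 14.3% held. The absence of these letters says nothing of other places where such factors could bind. PRICKLE1 has 21 transcripts in GENCODE v29, of which 8 start within 1000 bases of the start used here, 10 start over 50000 bases upstream and 3 start elsewhere. The gene counts do not assign reads to a start.

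Under DMSO, PRICKLE1 was low in WT and among the abundant transcripts in both clones. In WT it read 34.1, 29.2 and 39.7 in replicates 1 to 3 (34.3 ± 5.3, SD, n = 3), from 31 to 42 reads a library. E1 read 3918, 3278 and 4200 (3799 ± 472), and F2 read 3681, 3374 and 3484 (3513 ± 155). The clone libraries lay far above all WT libraries, and those of E1 and F2 overlapped each other. Such separation upward from WT was seen for 14.8% of tested genes in E1 and 18.1% in F2. The difference from WT came to 111-fold in E1 (log2 6.75) and 102-fold in F2 (log2 6.65), which were the third and second largest rises of 16154 tested genes. Both clones are set against the same 3 WT libraries. Genes higher by at least 1 log2 unit with an adjusted p under 0.05 made up 2.35% of tested genes in E1 and 0.885% in F2, with 2.69% and 2.09% lower, a background from which nothing is read here since PRICKLE1 was chosen on it. By rank of normalized count within a library, the median place of PRICKLE1 moved from 12740 in WT to 2044 in E1 and 2163 in F2.

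In WT, PRICKLE1 was about 10-fold higher with tazemetostat than with DMSO and still far from its level in the clones. The treated WT libraries read 332, 319 and 369 (340 ± 26.2, SD, n = 3). All lay above the 3 DMSO libraries, as was so for 39.3% of tested genes, and the fold was 9.91 (log2 3.28, SE 0.10). Of the genes tested, 14.5% were called higher and 6.77% lower in this comparison, and 6.95% had a log2 change as high as that of PRICKLE1 or higher. The DMSO libraries of this comparison are also those on which the gene was picked, as low in WT and high in the clones, so the responses to tazemetostat are given as a description with no test in all 3 lines.

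In the clones PRICKLE1 was lower with tazemetostat than with DMSO, by less than the limit for a call. E1 read 2702, 2994 and 3181 under tazemetostat (2959 ± 241), all below its DMSO libraries. The mean came to 77.9% of that under DMSO (log2 -0.36, SE 0.10, n = 3). F2 read 2531, 2466 and 2632 (2543 ± 83.6), again all below its DMSO libraries. Here the mean came to 72.4% of that under DMSO (log2 -0.47, SE 0.10, n = 3). Neither difference reached 1 log2 unit, the limit used for calling a change. Lower values at an adjusted p under 0.05 with no limit on size were found for 19.7% of genes in E1 and 23.2% in F2, and 3.78% and 3.71% were called lower. Groups that lay apart downward made up 19.7% and 28.8%, so small shifts of this kind were frequent in the clones.

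**Figure D1:**
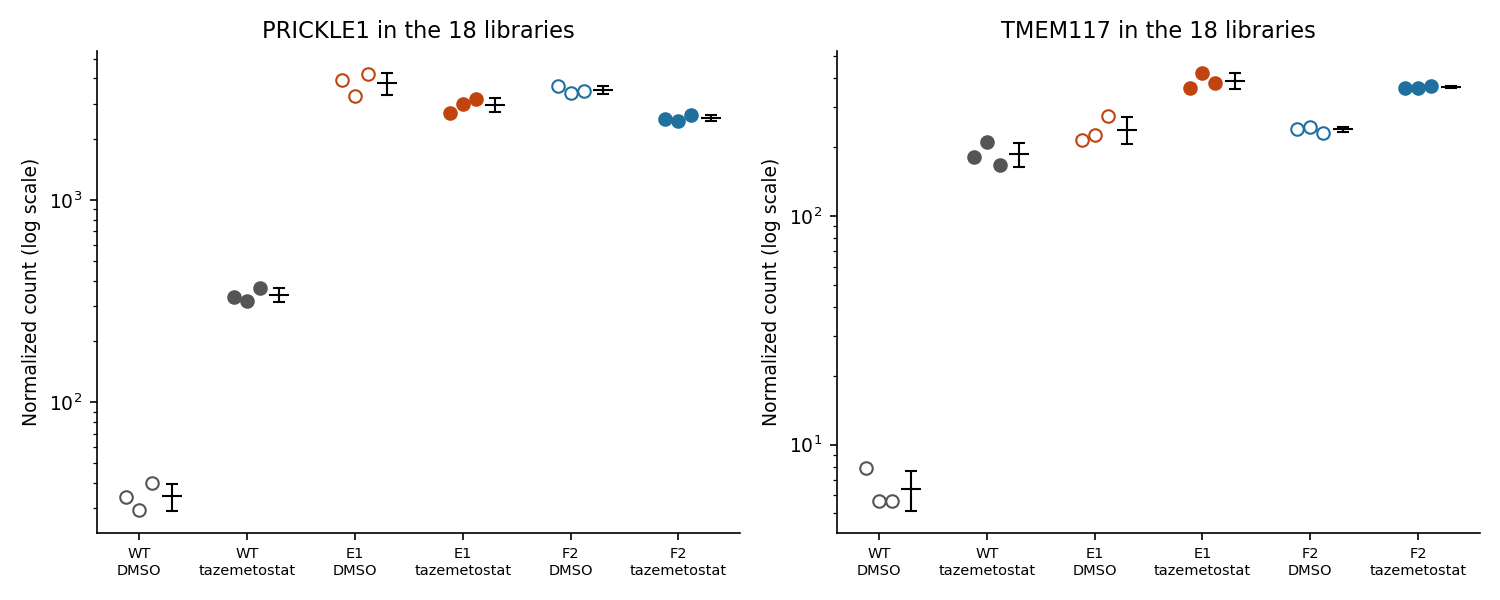
Normalized counts of PRICKLE1 (left) and TMEM117 (right) in each library on a log axis, by line and treatment, 3 libraries a group; points are libraries and short lines are group means. PRICKLE1 runs from 34.3 in WT under DMSO to 340 under tazemetostat and stays between 2466 and 4200 in every clone library.

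The comparison of lines under tazemetostat uses 9 libraries other than the DMSO ones on which PRICKLE1 was picked, and the gene was higher in both clones there too. They come from the same lines, and earlier results of these data were known. The p-values below are therefore no separate check of the choice. E1 exceeded WT 8.70-fold (log2 3.12, SE 0.10, 95% interval 2.90 to 3.34, limma adjusted p = 1.96e-13, n = 3). F2 exceeded WT 7.48-fold (log2 2.90, SE 0.10, 95% interval 2.68 to 3.12, limma adjusted p = 7.47e-13, n = 3). The exact two-sided permutation test gave p = 0.1 in each, the smallest value that 3 libraries against 3 allow. The lowest clone library, at 2466, was several times the highest WT library, at 369. PRICKLE1 had the 18th largest rise over WT in E1 and the 17th largest in F2. In these comparisons 5.4% and 7.31% of tested genes were called higher and 5.95% and 4.97% lower. Clone libraries all above WT were found for 28.9% of genes in E1 and 32.6% in F2. WT thus reached 11.5% of the E1 level and 13.4% of the F2 level under tazemetostat, compared with 0.904% and 0.978% under DMSO. The same WT libraries serve both comparisons.

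Between the clones under tazemetostat, PRICKLE1 was 16.4% higher in E1 than in F2, and this was not called. The lowest E1 library, at 2702, stood just above the highest F2 library, at 2632. The log2 difference was 0.22 (95% interval -0.00326 to 0.44, limma adjusted p = 0.120, n = 3, exact permutation p = 0.1). Genes whose E1 libraries all lay above all F2 libraries made up 26.8% of those tested, and 2.39% were called higher in E1. Under DMSO the clones' libraries overlapped, with a log2 difference of 0.11. In order of level, the groups ran E1 under DMSO, F2 under DMSO, E1 under tazemetostat, F2 under tazemetostat, WT under tazemetostat and WT under DMSO. Of these neighbours, only E1 and F2 under DMSO overlapped. The coefficient of variation over replicates ranged from 3.29% in F2 under tazemetostat to 15.3% in WT under DMSO.

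Placing the responses side by side, a gene that rises with tazemetostat in WT and is lower with it in both clones was rare in these libraries. Of 2342 genes called higher with tazemetostat in WT, 1580 were called higher in both clones as well. For 6 of the 2342, or 0.256%, the value was lower in both clones at an adjusted p under 0.05 and any size, and PRICKLE1 was one. The others, named after their values were seen, were EPHA3, EXTL1, GPR157, AF131217.1 and SOX15. EPHA3, an ephrin receptor, had log2 changes of 1.68 (WT), -0.72 (E1) and -1.07 (F2). EXTL1, a glycosyltransferase of the exostosin family, had 1.36, -0.64 and -0.43. Among the 6, PRICKLE1 had the largest WT change, and AF131217.1 was the only one called lower in both clones (log2 -2.20 and -1.43). EPHA3 was called lower in F2 alone. At any size of change in WT, 78 of 16154 tested genes (0.483%) were higher there and lower in both clones at an adjusted p under 0.05, PRICKLE1 among them. The DMSO libraries enter both the choice of PRICKLE1 and these counts. Its place in them is therefore a description and no test of its responses.

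Few genes were higher in both clones under both treatments, and PRICKLE1 had the widest margin of them. In both clones, 22 genes (0.136% of those tested) were called higher under DMSO, 531 (3.29%) under tazemetostat, and 10 (0.0619%) in all 4 comparisons. PRICKLE1 belongs to the 10 in part by how it was picked. Its smallest log2 difference among the 4 was 2.90, and the next largest such value was 1.94, for the homeobox gene IRX5, which averaged only 2.45 normalized counts in WT under DMSO. CPS1, the mitochondrial enzyme that opens the urea cycle, had means of 275, 657 and 805 in WT, E1 and F2 under DMSO and fell with tazemetostat in WT (log2 -1.26). PLIN4, a lipid droplet coat protein, differed by log2 1.40 to 1.71 and rose with tazemetostat in WT (log2 1.67). INPP5D, the inositol phosphatase SHIP1, named after its values were seen, differed by log2 4.57 and 4.77 in E1 but by 1.18 and 2.77 in F2. PRICKLE1 differed from these in that its distance to WT was several log2 units smaller under tazemetostat than under DMSO, a difference that includes the DMSO values it was picked on and was not tested. DENND2A, DAND5, FGF14-AS2, KANK3 and RP11-7F17.7 complete the 10. In WT under DMSO and tazemetostat, IRX5 averaged 2.45 and 4.25, and DAND5 averaged 4.87 and 2.84. Both thus reached the mean of 10 needed for a test only through clone groups. Their calls are therefore a description and no separate support. Of the 10, 4 were called higher with tazemetostat in WT, namely PRICKLE1, PLIN4, INPP5D and RP11-7F17.7, beside 14.5% of all tested genes. For PRICKLE1 that call is a description, since its DMSO libraries chose the gene. The other genes called were near the floor in WT under DMSO, where PLIN4, INPP5D and RP11-7F17.7 had at most 8, 5 and 10 reads per library. Those WT DMSO libraries also entered the choice of the 10, so nothing more is read from the count.

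**Figure D2:**
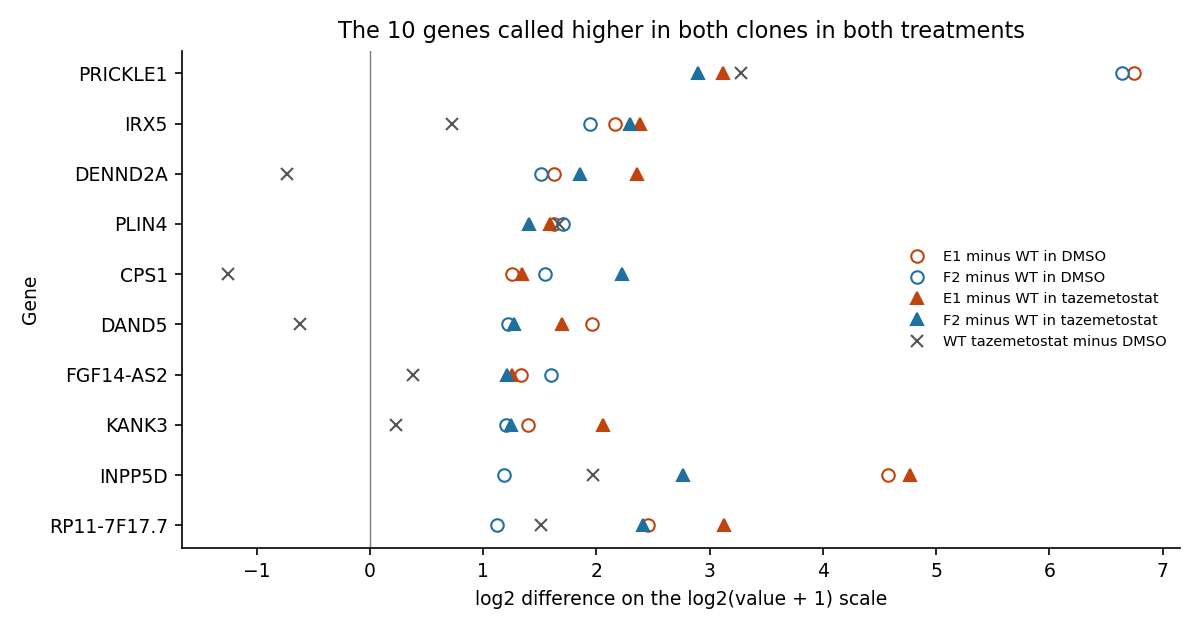
log2 differences on the log2(value + 1) scale for the 10 genes called higher in both clones under both treatments, 1 gene a line; circles are clone minus WT in DMSO, triangles clone minus WT in tazemetostat, and crosses tazemetostat minus DMSO in WT. PRICKLE1 stands at 6.75 and 6.65 in DMSO, and at 3.12 and 2.90 in tazemetostat.

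Within its family, PRICKLE1 had the lowest mean level per kilobase in WT and the highest in the clones. Levels of different genes are compared as normalized counts per kilobase of merged exons, 8247 bases for PRICKLE1. On that scale PRICKLE1 stood at 4.16 in WT under DMSO and 41.2 under tazemetostat, at 461 and 359 in E1, and at 426 and 308 in F2. Its share of the summed level of the family was 1.52% and 5.73% in WT, 55.7% and 35.4% in E1, and 60.7% and 32.7% in F2, under DMSO and tazemetostat respectively. Per kilobase it was the fourth of 4 members in both WT groups and the first in all 4 clone groups. PRICKLE2, at 4.51, stood close to it in WT under DMSO, and PRICKLE3, at 296, in F2 under tazemetostat. In each case the libraries of PRICKLE1 overlapped those of the other gene, so the order there is not resolved. The DMSO ranks and shares restate values on which the gene was picked.

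PRICKLE2, a paralogue that also acts in planar polarity, rose with tazemetostat in every line, whereas PRICKLE1 was higher with it in WT and lower in both clones. Its normalized counts in WT were 68.1, 67.9 and 63.4 under DMSO and 4386, 4078 and 4114 under tazemetostat. The WT rise was 63.1-fold (log2 5.96, limma adjusted p = 5.76e-19, n = 3). E1 rose 3.07-fold from 1263 ± 204 to 3880 ± 74.9. In F2 PRICKLE2 had 0 reads in all 3 DMSO libraries and 2637 ± 147 under tazemetostat, at least 805-fold higher when 3 reads per library are taken as the floor. The clones thus went opposite ways from WT under DMSO, with E1 higher by log2 4.22 and F2 at least 20.3-fold lower, whereas PRICKLE1 was high in both. Under tazemetostat PRICKLE2 did not pass the call limit between clones and WT (log2 -0.11 in E1 and -0.67 in F2), where PRICKLE1 did.

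PRICKLE3 and PRICKLE4 varied less between the groups than PRICKLE1. PRICKLE3 had log2 values of 0.72, 0.42 and 0.90 for tazemetostat minus DMSO in WT, E1 and F2, and PRICKLE4 had 0.24, 0.62 and 0.44. None reached the call limit. Per kilobase, group means of PRICKLE3 ranged from 159 to 296 and those of PRICKLE4 from 82.5 to 158, while those of PRICKLE1 ranged from 4.16 to 461.

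**Figure D3:**
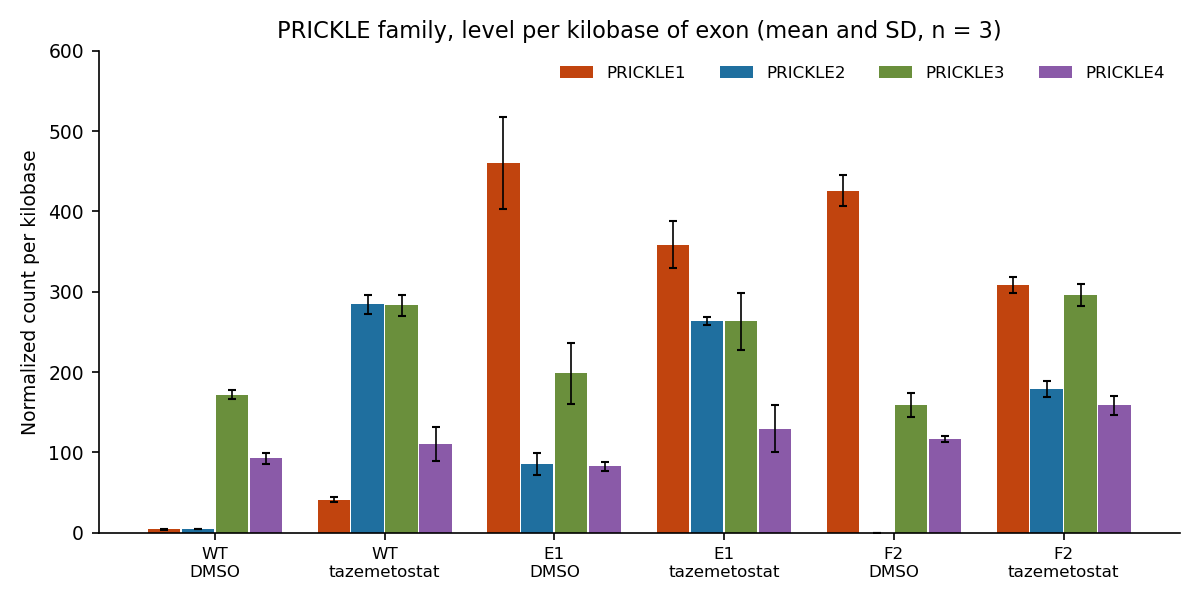
Normalized count per kilobase of merged exons for PRICKLE1, PRICKLE2, PRICKLE3 and PRICKLE4 in the 6 groups; bars are means and error bars SD over 3 libraries. PRICKLE1 is the shortest of the 4 bars in WT under DMSO, at 4.16, and the tallest in E1 under DMSO, at 461.

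On chromosome 12, TMEM117 was the only nearby tested gene called higher in both clones under DMSO. Under tazemetostat only NELL2 among these neighbours was called higher in both (log2 1.92 in E1 and 2.34 in F2). The order is from GENCODE v29, and the 5 nearest tested genes on each side were CNTN1, GXYLT1, YAF2, PPHLN1 and ZCRB1 on one side and PUS7L, IRAK4, TWF1, TMEM117 and NELL2 on the other. PPHLN1 overlaps PRICKLE1 by 2959 bases on the opposite strand, and the sources used here do not state whether counting used the strand. Its group means lay between 2426 and 2897 with no call in any comparison, so its counts did not follow those of PRICKLE1. ADAMTS20, the nearest annotated coding gene on the other side, had group means of 0 to 1.6 and was not tested.

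TMEM117, which encodes a multi-pass membrane protein, was nearly silent in WT under DMSO, at 7.86, 5.65 and 5.68. It read 215, 226 and 275 in E1 and 241, 245 and 232 in F2, with no overlap with WT. The fold was 37.3 in E1 and 37.4 in F2 (log2 5.02 and 5.03, limma adjusted p = 3.05e-15 and 7.65e-15, n = 3). Tazemetostat took WT to 181, 211 and 167, a 29.2-fold rise (log2 4.67, limma adjusted p = 8.08e-16, n = 3). Up to that point it resembled PRICKLE1. In the clones the tazemetostat libraries of TMEM117 were higher than the DMSO ones, by log2 0.71 in E1 and 0.61 in F2, where those of PRICKLE1 were lower. Neither of these reached the call limit, and a test between the genes was not made. Under tazemetostat E1 was 2.09-fold above WT, which was called (log2 1.06, limma adjusted p = 2.95e-06, n = 3). F2 was 1.96-fold above WT, just short of the limit (log2 0.98). TMEM117 was also the gene with the most similar profile, so its likeness to PRICKLE1 is no separate support.

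The remaining neighbours showed smaller or different patterns. GXYLT1, a xylosyltransferase, stood 1.95-fold higher in E1 than in WT under DMSO (log2 0.95), under the limit, and at log2 0.19 in F2. IRAK4, a kinase of Toll-like receptor signalling, had log2 0.67 in E1 and 0.27 in F2. For GXYLT1 and IRAK4 all clone libraries lay above those of WT under both treatments. That was so for 14.8% (E1) and 18.1% (F2) of tested genes under DMSO, and for 28.9% and 32.6% under tazemetostat. NELL2, a secreted neural protein, was lower in both clones than in WT under DMSO, at least 4.74-fold in E1 and 4.10-fold in F2, and higher under tazemetostat, 3.83-fold and 5.14-fold. Its WT libraries under DMSO were uneven, at 3.49, 28.3 and 8.52. CNTN1, a neural adhesion molecule, rose with tazemetostat in all 3 lines, from 1 read or none in each DMSO library. It entered the tests only through the tazemetostat groups, so its rises are a description. Under tazemetostat WT and E1 reached 44.9 ± 7.4 and 46.0 ± 5.9, and F2 reached 16.4 ± 0.914.

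**Figure D4:**
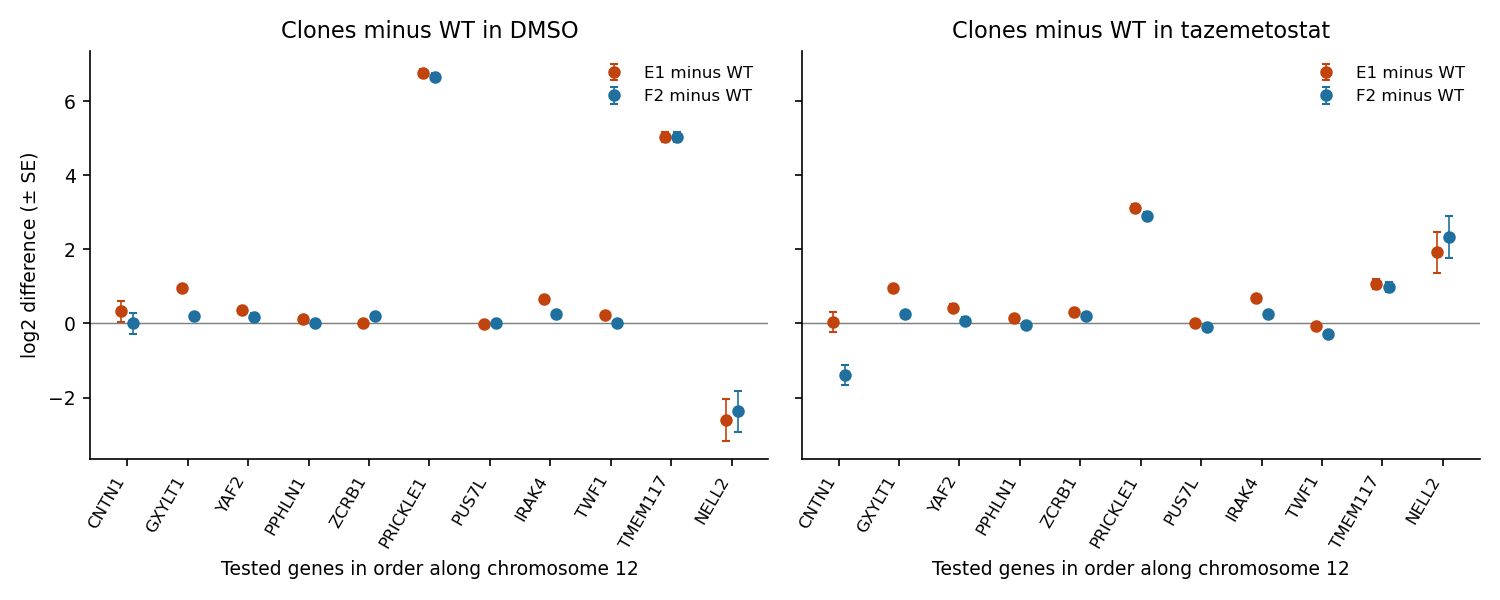
log2 difference of E1 and F2 from WT for PRICKLE1 and the 5 nearest tested genes on each side, in order along chromosome 12, under DMSO (left) and tazemetostat (right); bars are SE. Under DMSO PRICKLE1 (6.75 and 6.65) and TMEM117 (5.02 and 5.03) stand above the other genes, which include NELL2 at -2.60 and -2.37.

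Across the 18 libraries, few genes followed PRICKLE1 closely. Of 16153 other tested genes, 1 had a Pearson correlation of at least 0.9 on the log2(value + 1) scale and 0 reached 0.95. TMEM117 had r = 0.91, followed by MATN2 (0.90), FGF14-AS2 (0.89), CEACAMP11 (0.88), CYTH1 (0.87), AP006621.5 (0.87), RP11-307C12.11 (0.86) and AK7 (0.85). CEACAMP11 is a pseudogene, whose reads may belong to its gene family. The lowest values were those of ZNF141 (-0.95), ZNF732 (-0.93), PLA2G3 (-0.92) and RB1 itself (-0.91). These points share lines, with 6 WT libraries on one side and 12 clone libraries on the other, so they describe mainly that separation. By rank, TMEM117 dropped to a Spearman rho of 0.50, place 981, and 0 of the 8 most similar genes by Pearson were among the 8 most similar by Spearman. CYTH1, a guanine nucleotide exchange factor for ARF proteins, came nearest to it, with a rho of 0.88, place 10.

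The planar polarity and REST lists were counted to place PRICKLE1 in its pathway. They hold 80 genes besides PRICKLE1, of which 67 were tested. With tazemetostat 18 were called higher and 1 lower in WT, 15 and 2 in E1, and 18 and 1 in F2, while of all tested genes 14.5%, 11.3% and 13.3% were called higher and 6.77%, 3.78% and 3.71% lower. In each line the genes called higher include FAT2, DACT1, PHLDB2, SCG3 and VANGL2. These averaged under 10 in every DMSO group and entered the tests only through tazemetostat groups, which raises the list counts. The same filter applied to all tested genes. Of the 18 that rose in WT, 15 rose in E1, 17 in F2 and 15 in both. Of all 2342 tested genes called higher in WT, 1580 rose in both. None of the 18 list genes, that is 0, had a log2 change below 0 in either clone. PRICKLE1, with log2 -0.36 and -0.47 in the clones, stood on the other side of 0 from those genes. How many of the 2342 genes had such a change in either clone was not counted. Whether 0 of 18 is unusual therefore cannot be said. At any size of change, 2 of the 67 list genes (2.99%), WNT5A and WNT5B, were higher in WT and lower in both clones at an adjusted p under 0.05. Over all tested genes the share was 0.483%. PRICKLE1 had the same directions, given as a description. Against WT under tazemetostat, 3 were called higher and 5 lower in E1, and 1 higher and 3 lower in F2, where 5.4% and 7.31% of all tested genes were called higher and 5.95% and 4.97% lower. Under DMSO the clones differed from WT in unlike ways, with 6 higher and 1 lower in E1 and 1 higher and 6 lower in F2, beside 2.35% and 0.885% of all tested genes higher and 2.69% and 2.09% lower.

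Among the core planar polarity genes, 11 of 12 were tested and 1 rose in each line with tazemetostat, near the 14.5%, 11.3% and 13.3% of all tested genes called higher in WT, E1 and F2. This was VANGL2, the membrane partner of PRICKLE proteins, at 0.315 ± 0.546 in WT under DMSO and 8.87 ± 3.63 under tazemetostat. Its level under tazemetostat was 34.6 ± 8.11 in E1 and 32.5 ± 1.09 in F2. Against WT under tazemetostat VANGL2 was higher by log2 1.91 in E1 and 1.85 in F2 (n = 3), at a far lower level than PRICKLE1. Its mean over all libraries was 13.3. Apart from E1 and F2 under tazemetostat, every group mean lay below the mean that a gene needed to be tested. VANGL2 thus entered the tests only through the groups found high, so its calls in the clones are a description and no separate support. ANKRD6 fell with tazemetostat in E1 (log2 -1.09) and F2 (log2 -1.38) and stood at -0.83 in WT, short of the limit. The list's median log2 change by line was -0.07 (WT), -0.08 (E1) and -0.04 (F2), beside 0.03, 0.02 and 0.02 over all tested genes.

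Of the non-canonical WNT ligands and receptors, 9 of 12 were tested. With tazemetostat 1 was called higher in each line, beside 14.5%, 11.3% and 13.3% of all tested genes, and 1 lower in E1, beside 3.78%. WNT4 rose with tazemetostat in all 3 lines (log2 3.41, 1.97 and 3.09). WNT5A, the best known ligand acting upstream of PRICKLE proteins, was higher in both clones under DMSO, at 2977 ± 404 in E1 and 1333 ± 87.1 in F2 against 650 ± 27.8 in WT (log2 2.18 and 1.03). Under tazemetostat it was higher in E1 (log2 1.23), and F2 stood at log2 0.12. WNT11 was higher than WT in E1 (log2 1.45) and lower in F2 (log2 -1.30) under DMSO. It fell with tazemetostat in E1 (log2 -1.99). GPC4 was lower than WT in F2 under DMSO (log2 -1.54) and in E1 and F2 under tazemetostat (log2 -1.04 and -1.44). Against WT under tazemetostat, 1 list gene was called higher and 2 lower in E1, and 0 higher and 3 lower in F2. Of all tested genes, 5.4% and 7.31% were called higher and 5.95% and 4.97% lower. With tazemetostat WNT5A was slightly higher in WT (log2 0.37) and lower in E1 and F2 (log2 -0.58 and -0.54), the same directions as PRICKLE1. WNT5B, a related ligand, ran likewise at log2 0.84, -0.89 and -0.60. All 6 of these differences had a limma adjusted p under 0.05 and none reached the call limit. Unlike PRICKLE1, WNT5B was lower in both clones than in WT under tazemetostat (means of 105 and 135 against 272).

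Downstream effectors had 14 of 15 genes tested and 2 that rose with tazemetostat in each line, close to the background of 14.5%, 11.3% and 13.3%. DACT1, a Dishevelled regulator, averaged under 2 normalized counts in each DMSO group and 588, 279 and 436 in WT, E1 and F2 under tazemetostat. It entered the tests only through the tazemetostat groups, so its rises are a description. DAAM1, the formin linking Dishevelled to RHOA, rose by log2 2.32, 2.09 and 2.47. FUZ, a ciliogenesis effector, fell in WT (log2 -1.14) and stood at log2 -0.67 in E1 and -0.85 in F2, short of the call limit. Against WT under tazemetostat, where PRICKLE1 differed by about 3 log2 units, the effectors had a median log2 difference of 0.10 in E1 and 0.02 in F2.

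In the FAT and Dachsous system, which acts in parallel to the core pathway, 3 of 5 tested genes rose with tazemetostat in each line, FAT2, FAT4 and FJX1, where 14.5%, 11.3% and 13.3% of all tested genes were called higher. FAT4, a giant cadherin, went from 20.1 ± 5.3 to 878 ± 113 in WT, from 160 ± 13.3 to 1187 ± 109 in E1 and from 21.9 ± 6.37 to 1308 ± 209 in F2. Its DMSO level was higher in E1 than in WT (log2 2.96) and not in F2. FAT2 averaged 0, 2.56 and 0.341 under DMSO in WT, E1 and F2. It entered the tests only through the tazemetostat groups, so its rises are a description. Of the 7 listed genes, FAT3 and DCHS2 were too low to be tested. The list's median log2 change was 1.83, 2.12 and 1.98, beside 0.03, 0.02 and 0.02 over all tested genes.

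Of the 12 partners of PRICKLE1, all were tested and 2, 1 and 1 rose with tazemetostat in WT, E1 and F2, near the background of 14.5%, 11.3% and 13.3%. PHLDB2, a cortical microtubule anchoring protein, went from 0 reads to 740 in WT, at least 268-fold higher, and was at least 30.8-fold and 222-fold higher in E1 and F2. It too entered the tests only through the tazemetostat groups, so its rises are a description. REST had log2 values of 0.31, 0.20 and 0.14 for tazemetostat minus DMSO, and MINK1, the kinase that phosphorylates PRICKLE proteins, had 0.96, 0.35 and 0.43. None of these was called, and both genes are named for their ties to PRICKLE1. The median log2 change of the partners was 0.00, 0.06 and 0.03, beside 0.03, 0.02 and 0.02 over all tested genes.

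Of 13 tested REST target genes, 8 (WT), 6 (E1) and 9 (F2) rose with tazemetostat, beside 14.5%, 11.3% and 13.3% of all tested genes, with median log2 changes of 1.48, 0.80 and 1.93. SCG3, counted in each line, averaged 0.630, 0.619 and 0 under DMSO in WT, E1 and F2. It entered the tests only through tazemetostat groups, so its rises are a description. Other examples were SCN2A, a neuronal sodium channel (log2 3.36, 4.80 and 5.07), and CHGA, a secretory granule protein (log2 5.28, 3.10 and 5.29). Against WT under DMSO, 1 was higher and 1 lower in E1, and 3 were lower in F2, where 2.35% of all tested genes were higher and 2.69% lower in E1 and 2.09% lower in F2. Against WT under tazemetostat, 2 were lower in E1, where 5.95% of all tested genes were, and the median log2 difference was -0.26 in E1 and -0.13 in F2, beside 3.12 and 2.90 for PRICKLE1.

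**Figure D5:**
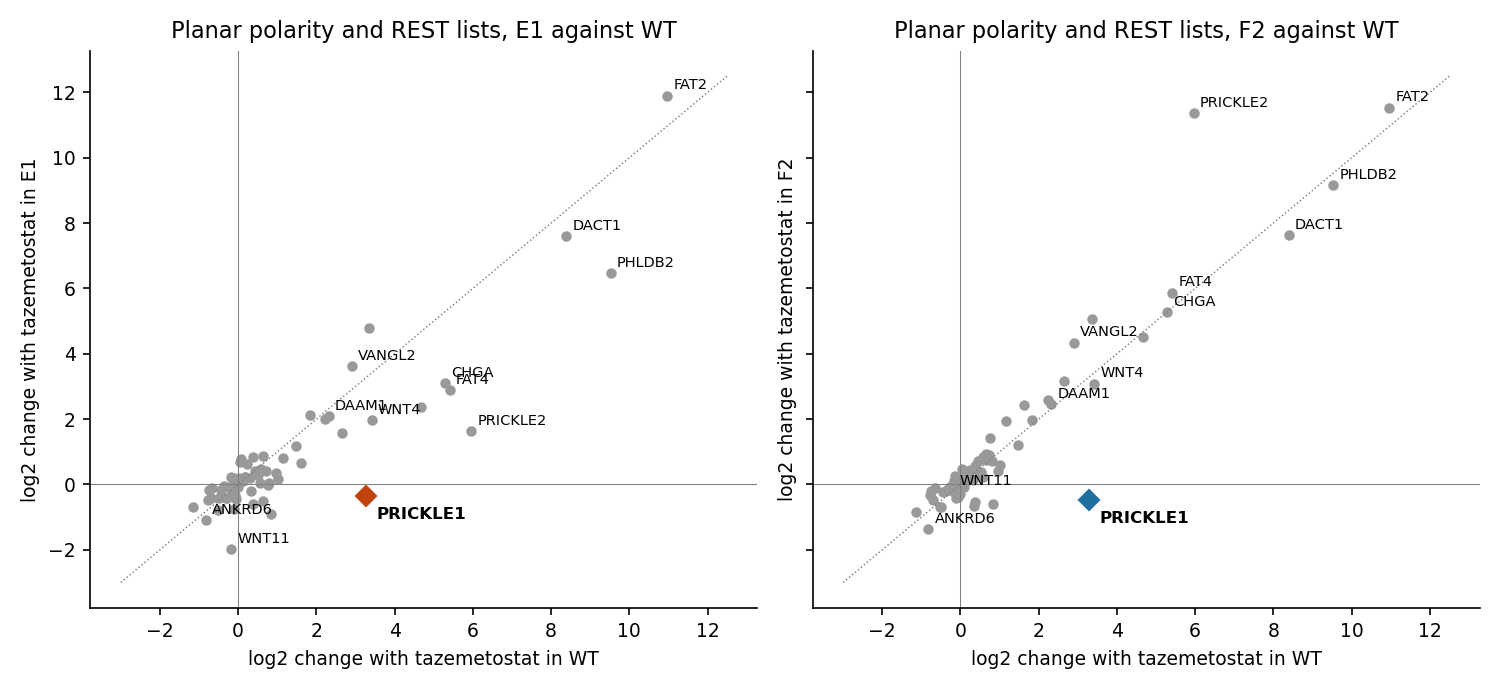
log2 change with tazemetostat in E1 (left) and F2 (right) against that in WT for the tested planar polarity and REST list genes (grey) and PRICKLE1 (coloured diamond), 1 point a gene, with the line of equal change dotted; genes at or near 0 reads under DMSO, such as FAT2 or PRICKLE2 in F2, have values that depend on the added 1. PRICKLE1 lies at 3.28 in WT and at -0.36 and -0.47 in the clones.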

How the data were processed

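RNA was poly(A) selected and sequenced as paired-end libraries from a stranded kit, per the labels' protocols. Trim Galore 0.4.4, STAR 2.6.0a, HTSeq, DESeq2 and the build hg19 are named in the submitters' processing notes, while the annotation and strand setting are not given in the sources used here. The signal that the authors deposited is the gene count over the size factor of its sample, and whole reads were recovered for 100% of values within a tolerance of 1e-06. All columns were used.

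Log2(value + 1), which understates changes of low genes, was fitted in limma 3.58.1 (R 4.3.3) as 6 group means, with eBayes and its trend option. The 16154 genes that averaged at least 10 were tested. Called genes had a log2 change of at least 1 in size and a Benjamini-Hochberg adjusted p under 0.05. Alternatives included edgeR 4.0.16 and DESeq2 1.42.0 on the recovered reads. On data simulated for WT with tazemetostat against DMSO (16154 genes), the fit recovered 98 of 100 genes changed 4-fold and 52 of 100 changed 2-fold. A 2-fold change lies on the call limit itself, so misses there are built in. Every simulated gene was given the same dispersion between replicates, which real genes need not have. Same-numbered replicates had deviations correlated above 0.1 in all 3 pairs for F2 against WT under DMSO (0.182, 0.108 and 0.375) and in no other comparison. A test of the responses of PRICKLE1 to tazemetostat was planned and is not given, since their DMSO libraries chose the gene. Folds against groups with at most 3 reads in each library are lower bounds against 3 reads per library, and floors cover counting error only.

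PRICKLE1 and the gene lists were chosen with earlier results of these data known. Named genes were up to 4 called members per list and comparison with the largest changes, the PRICKLE family, the 8 most and 4 least correlated genes, 5 tested neighbours on each side, the 8 genes with the largest smaller-of-4 difference in both clones, and RB1, EZH2 and SMARCB1, some of them given as counts only. REST, MINK1, ADAMTS20 and the genes with a response opposite between WT and the clones were named outside that rule. EZH2 averaged 2478 and 876 in WT, 3178 and 2989 in E1, and 3207 and 2649 in F2, under DMSO and tazemetostat. Symbols were matched to GENCODE v29 for exon lengths and gene order, with 11 of the 51 annotated genes in the stretch around PRICKLE1 tested. That annotation is on another build, so none of its coordinates are given.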

Additional observations from a re-analysis of the deposited data

Results flagged for a closer look

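The response of PRICKLE1 to tazemetostat went opposite ways in WT and the clones, which is why it is listed here. All 3 treated WT libraries lay above all WT DMSO libraries, and all treated libraries of E1 and of F2 lay below their DMSO libraries. The log2 change with tazemetostat in E1 minus that in WT was -3.63, and in F2 minus that in WT it was -3.74. The difference was not tested, since it contains the DMSO values on which the gene was picked. The DMSO level differed between the lines at the same time, at 34.3 in WT against 3799 in E1 and 3513 in F2, and its part in the difference was not tested. Groups of 3 are too small for a search for single libraries that stand apart.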

How the results depend on the processing

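Under 16 alternatives, which varied the pseudocount, the filter, the scaling, the tool, the libraries in the fit and the replicate block, all 8 PRICKLE1 differences kept their direction. None of the 6 with an adjusted p moved into or out of the called set, although the adjusted p between the clones under tazemetostat crossed 0.05. The responses to tazemetostat among the 6 are a description. Leaving out 1 library at a time gave log2 3.17 to 3.39 for tazemetostat in WT, -0.46 to -0.28 in E1 and -0.49 to -0.43 in F2. It gave 3.06 to 3.18 for E1 and 2.86 to 2.96 for F2 against WT under tazemetostat. The difference between the clones there, log2 0.13 to 0.28 over all alternatives, had adjusted p from 0.0177 (only these 2 groups, limma) to 0.387 (no filter, limma), with 0.0471 by edgeR and 0.0554 by DESeq2. With the replicate number as a block, limma adjusted p was 0.0541 between the clones, and no PRICKLE1 call changed. The log2 values stayed at 3.28, -0.36 and -0.47 for tazemetostat in WT, E1 and F2 with the block.

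Counts over all genes moved more. Without a fold limit, the calls rose from 3436 to 10367 in WT with tazemetostat, 2434 to 7554 in E1 and 2745 to 8438 in F2. Against WT under tazemetostat they rose from 1833 to 8373 in E1 and 1984 to 8573 in F2, and under DMSO from 814 to 3740 and 481 to 3260. Between the clones under tazemetostat they rose from 1101 to 5575. With no filter, E1 and F2 had 3656 and 4245 calls with tazemetostat, and with a mean of at least 50 they had 1550 and 1768. That filter left 1139, 1230 and 605 calls under tazemetostat for E1 against WT, F2 against WT and E1 against F2, and 504 for E1 against WT under DMSO. Scaling to equal totals changed the split of F2 against WT under tazemetostat from 1181 higher and 803 lower to 1557 and 616, and that of WT with tazemetostat from 2342 and 1094 to 2081 and 1530. Longest transcripts in place of merged exons, an alternative chosen after seeing the data, left the family ranks of PRICKLE1 as they were.

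PRICKLE1 rested on 31 to 42 reads per WT library under DMSO, so counting error weighs most there.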
